A study of Homo sapiens with 7 samples.

Results

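The HOX genes of the 4 human clusters were taken as the protein-coding genes of GENCODE release 44 (hg38) whose name is HOXA, HOXB, HOXC or HOXD followed by a number. They numbered 39 of 20033 protein-coding genes on chromosomes 1 to 22, X and Y. The HOXA cluster held 11 genes on chromosome 7, HOXB held 10 on chromosome 17, HOXC held 9 on chromosome 12 and HOXD held 9 on chromosome 2. The genes were chosen by name.

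HOX genes encode homeodomain transcription factors that give cells their position along the head-to-tail axis of the embryo, and the order of the genes on the chromosome follows the order in which they act along that axis. Low-numbered (anterior) genes act towards the head and high-numbered (posterior) genes towards the tail. In cells that do not use them, HOX clusters are a textbook target of the Polycomb complexes, of which Polycomb repressive complex 2 places trimethylation on lysine 27 of histone H3 (H3K27me3). Trimethylation of lysine 9 (H3K9me3) marks constitutive heterochromatin, such as gene-poor and repeat-rich regions and clusters of zinc finger genes.

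The data were chromatin immunoprecipitation sequencing from HCT116, an established human colorectal cancer cell line, in 7 samples. All 7 came from cells that carry a doxycycline-inducible short hairpin RNA against UHRF1, a cofactor of maintenance DNA methylation, and had gone 14 days without doxycycline, the inducer of the hairpin. Clone 3 had 2 H3K9me3 samples, 2 H3K27me3 samples and 1 input sample, and Clone 6 had 2 H3K27me3 samples, each clone being a single derivative of the line. The values were 5 sets of enriched domains, namely H3K9me3 in Clone 3, H3K27me3 in Clone 3, H3K27me3 in Clone 6, and for each mark the domains shared by the clones. No Clone 6 input sample was among the 7, and H3K9me3 in Clone 6 on its own was not analysed here.

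The Clone 3 H3K9me3 set held 567 domains covering 377 Mb and the shared H3K9me3 set 478 domains covering 354 Mb. H3K27me3 domains were more numerous and shorter, with 2600 domains (386 Mb, median length 58 kb) in Clone 3, 1959 (370 Mb, median 78 kb) in Clone 6 and 1844 (294 Mb, median 68 kb) shared between the clones. Each single-clone set holds the domains that its replicates had in common, and the shared sets those common to the clones. No count or distance therefore has an error from replicates, and no test was made. Neighbouring HOX genes lie next to the same domains and are not independent observations. All 3918 edges of the Clone 6 H3K27me3 set fall on a 2 kb grid and those of the other sets on a 1 kb grid, so that distances under 2 kb from a Clone 6 domain are below the resolution of the calls. What part of the differences between the clones goes with the grid was not tested. Read depth cannot be seen from the domain sets, and a start site outside a domain is one at which no domain was called, not one at which the mark is absent.

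The start sites of HOXA2 and HOXA4 were the only HOX start sites within a domain of any set, taking the 5′ end of each gene as its start. Both lay in a single H3K27me3 domain of Clone 6. The 250 bases before the RefSeq start (GRCh38.p14, minus strand) are shown for these genes and, for comparison, for HOXA6 and HOXA13 of the same cluster, which lay outside the domain. Capitals mark CpG dinucleotides. The HOXA2 window is chr7:27102684-27102933, with 8 CpGs, and the HOXA4 window is chr7:27130758-27131007, with 26 CpGs. The HOXA6 window, chr7:27147775-27148024, held 27 CpGs, and the HOXA13 window, chr7:27200092-27200341, held 40.
HOXA2: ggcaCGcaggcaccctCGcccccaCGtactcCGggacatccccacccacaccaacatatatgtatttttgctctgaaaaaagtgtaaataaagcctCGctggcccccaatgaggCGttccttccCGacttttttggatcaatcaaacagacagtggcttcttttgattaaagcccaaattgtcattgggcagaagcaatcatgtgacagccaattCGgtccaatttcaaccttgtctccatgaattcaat
HOXA4: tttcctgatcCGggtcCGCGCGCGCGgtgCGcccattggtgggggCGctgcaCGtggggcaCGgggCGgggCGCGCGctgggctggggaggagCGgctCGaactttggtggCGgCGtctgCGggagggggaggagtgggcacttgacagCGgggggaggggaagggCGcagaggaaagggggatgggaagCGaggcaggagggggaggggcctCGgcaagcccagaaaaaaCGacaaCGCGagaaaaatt
HOXA6: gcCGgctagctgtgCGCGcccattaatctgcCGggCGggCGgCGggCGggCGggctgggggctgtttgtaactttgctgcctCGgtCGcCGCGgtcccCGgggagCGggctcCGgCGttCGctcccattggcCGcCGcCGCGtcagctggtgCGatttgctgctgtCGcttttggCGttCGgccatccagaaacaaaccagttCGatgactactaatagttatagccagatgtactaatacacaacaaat
HOXA13: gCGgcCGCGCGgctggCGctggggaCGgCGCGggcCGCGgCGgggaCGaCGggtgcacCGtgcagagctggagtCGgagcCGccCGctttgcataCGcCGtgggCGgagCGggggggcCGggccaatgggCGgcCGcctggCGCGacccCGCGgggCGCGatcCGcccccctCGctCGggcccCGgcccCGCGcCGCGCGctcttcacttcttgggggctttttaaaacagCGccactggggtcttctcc
CG was found in 93.9% of 35116 RefSeq promoter windows of this length, with a median of 11 per window. HOXA2 thus lay below that median while the other 3 windows lay above it. RefSeq windows were matched for 20 of the 39 HOX genes. Over the 27 windows of these genes, the 7 in the domain held 0 to 26 CpGs and the 20 outside it 4 to 40.

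The clusters also hold microRNAs, short RNAs that bind messenger RNAs through a seed at bases 2 to 8. Mature sequences from RefSeq are shown with the seed in capitals, grouped by seed, because 1 of the hairpins lies across a domain edge. The miR-196a-5p copies lie in the HOXC and HOXB clusters and miR-196b-5p lies in HOXA, and they share the seed AGGUAGU. miR-10a-5p lies in HOXB, and both arms of miR-615 lie in HOXC.
miR-196a-5p: uAGGUAGUuucauguuguuggg
miR-196b-5p: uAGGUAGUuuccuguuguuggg
miR-10a-5p: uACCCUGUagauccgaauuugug
miR-615-5p: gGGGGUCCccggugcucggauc
miR-615-3p: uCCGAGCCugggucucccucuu

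No HOX start site lay in an H3K9me3 domain or in a Clone 3 or shared H3K27me3 domain, and 2 lay in a Clone 6 H3K27me3 domain. The count was 0 of 39 in Clone 3 H3K9me3, where 3.35% of all protein-coding start sites lay in a domain, and 0 of 39 in shared H3K9me3, where the share was 3.24%. On the 4 chromosomes that hold HOX clusters these shares were lower, 1.30% and 1.25%. It was 0 of 39 in Clone 3 H3K27me3, beside 6.44% of all genes, and 0 of 39 in shared H3K27me3, beside 5.32%. In Clone 6 H3K27me3 the 2 genes made up 5.13% of the HOX genes, beside 7.97% of all genes. With the start of the canonical transcript the Clone 6 count was 3, beside 8.00% of all genes. Only 4 loci stand behind the 39 genes, and at these shares the counts are too small to set HOX genes apart from other genes.

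Proximity to H3K27me3 domains differed between the clone sets. In Clone 6, 22 of 39 HOX start sites (56.4%) lay in or within 100 kb of a domain, beside 21.8% of all protein-coding genes. These were all 11 HOXA genes, all 9 HOXC genes, and HOXB7 and HOXB13. In Clone 3, 2 of 39 (5.13%), HOXC4 and HOXC5, did so, beside 16.3% of all genes. These counts use the 5′ end of each gene. By the canonical start HOXB7 lay 119 kb from a Clone 6 domain, and HOXC6 81.6 kb from a Clone 3 domain. The start was nearer to a Clone 6 than to a Clone 3 H3K27me3 domain for 30 of 39 HOX genes (76.9%), beside 61.5% of all genes. The 30 were all the HOXA, HOXB and HOXC genes, and the 9 HOXD genes went the other way. Only 4 loci stand behind the 39 genes, and neighbouring genes fall in or out of a 100 kb window largely together. The HOX shares are thus not shares of independent genes, and the contrast with all genes was not tested. Each clone has 1 set, of the domains its replicates had in common, so these differences between the clones have no error from replicates.

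**Figure D1:**
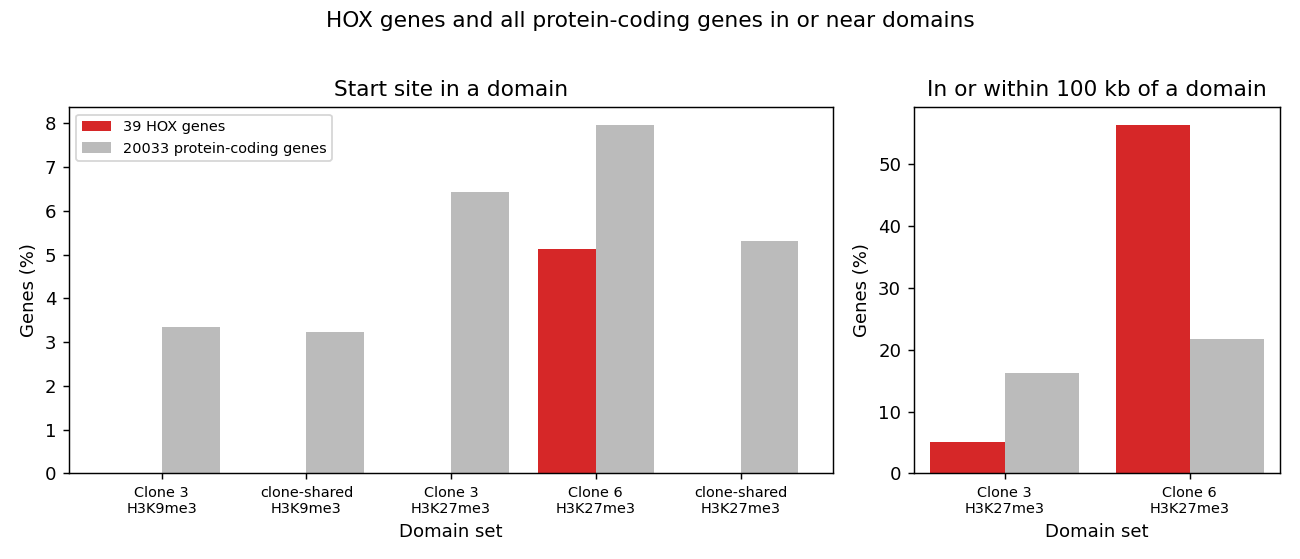
Percent of the 39 HOX genes (red) and of all 20033 protein-coding genes (grey) whose start site lay in a domain of each of the 5 sets (left) or in or within 100 kb of an H3K27me3 domain of Clone 3 or Clone 6 (right). Red bars absent at the left stand for 0 of 39 genes, and at the right the HOX share was 5.13% in Clone 3 and 56.4% in Clone 6. The 39 genes lie in 4 clusters and are not independent.

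The median distance from a HOX start to the nearest domain was 15879 kb for Clone 3 H3K9me3, against 3232 kb for all protein-coding genes, and 20390 kb for shared H3K9me3, against 3631 kb. No such median was computed for the 4 chromosomes with HOX clusters, where a smaller share of genes started in H3K9me3 domains. For H3K27me3 it was 1116 kb in Clone 3, against 706 kb for all genes, and 1117 kb in the shared set, against 864 kb. In Clone 6 it was 47.1 kb, against 500.2 kb. The clusters went different ways. For Clone 3 and for shared H3K27me3, all 9 HOXC and all 9 HOXD genes were nearer to a domain than the median gene, and no HOXA or HOXB gene was. For Clone 6 H3K27me3, every HOXA, HOXB and HOXC gene was nearer than the median gene, and of the 9 HOXD genes 1 was. For H3K9me3, no HOXA, HOXC or HOXD gene was nearer, while 1 of 10 HOXB genes was for Clone 3 and all 10 for the shared set.

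**Figure D2:**
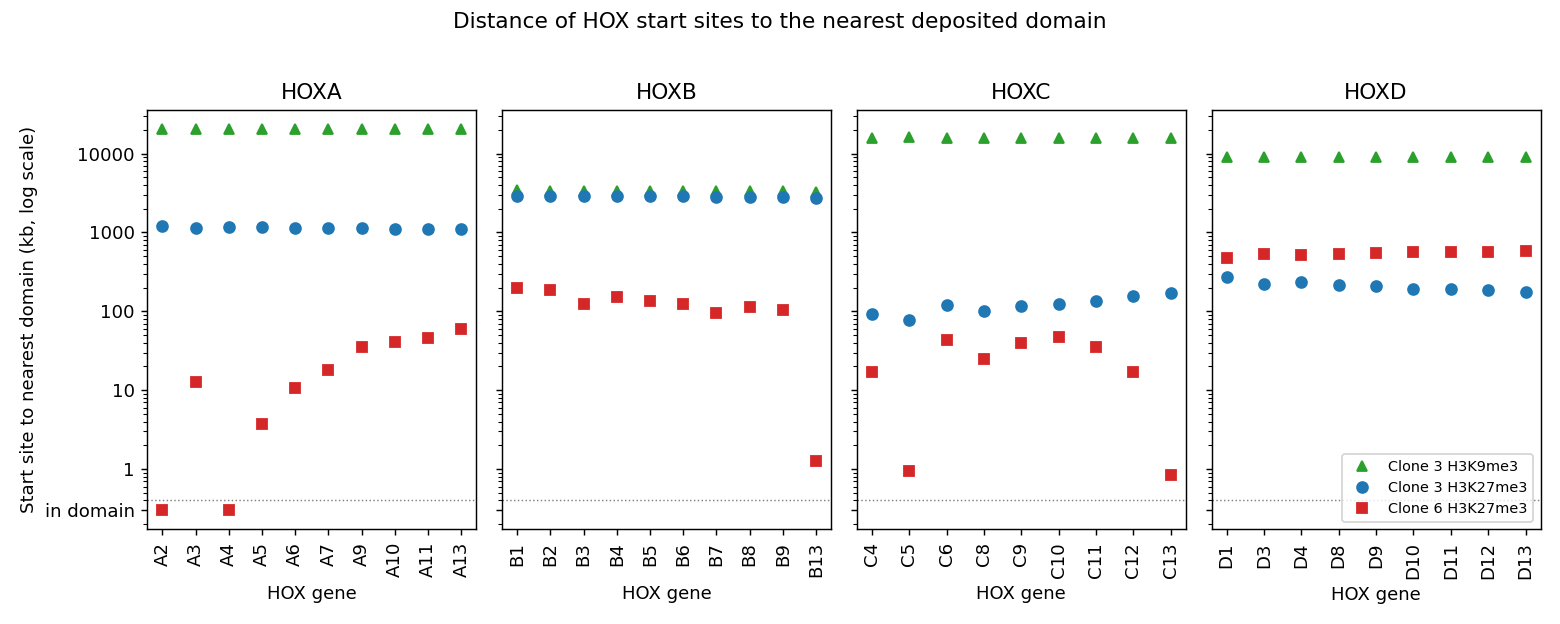
Distance in kb (log scale) from the start sites of HOX genes to the nearest domain of Clone 3 H3K9me3 (triangles), Clone 3 H3K27me3 (circles) and Clone 6 H3K27me3 (squares), by cluster and paralogue number, with starts inside a domain drawn at the bottom. HOXA2 and HOXA4 are the only points in a domain, and in HOXD the circles lie below the squares.

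The HOXA cluster spanned chr7:27092993-27200091 (107 kb), with every gene on the minus strand. Clone 6 had 1 H3K27me3 domain there, chr7:27102001-27140000, which lay wholly within the cluster and covered 38 kb, or 35.5% of the span. No domain of the other 4 sets overlapped the span. The domain carried scores of 18.6 and 21.5, taken to be those of the replicate calls behind it, and by its lower score it ranked 1307 of 1959 Clone 6 domains. It was also short for the set, longer than 16.0% of the domains. Clone 3 had no H3K27me3 domain nearer to it than 1161 kb.

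HOXA2 and HOXA3 are anterior genes with roles in the hindbrain and pharyngeal arches. The HOXA2 start, at position 27102686, lay 685 bp inside the lower edge of the domain, and 29.4% of the gene body was covered. That edge falls in an exon of HOXA2 and within the grid size of its start. HOXA3 has its 5′ end 12.6 kb beyond the upper edge, yet 72.9% of its body, 33.8 kb, lay in the domain. Of the 6 annotated HOXA3 transcripts, 2 start in the domain, so that this gene is in or out depending on the start used.

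HOXA4, a central gene, lay wholly in the domain, with its start at 27130780 and 9220 bp from the upper edge. It was the only HOX gene covered from end to end. HOXA5, the next gene, started 3.68 kb beyond that edge, which falls in introns of HOXA3 and of the antisense RNA HOXA-AS3. HOXA6 was 10.6 kb and HOXA7 17.9 kb from the domain by the 5′ end, and 7.77 kb and 16.7 kb by the canonical start.

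The posterior HOXA genes, which act in the limb, the urogenital tract and the hindgut, lay progressively farther from it. The distance was 35.2 kb for HOXA9, 40.3 kb for HOXA10, 45.2 kb for HOXA11 and 60.1 kb for HOXA13, the last gene of the cluster. By the canonical start it was 25.5 kb for HOXA9 and 34.3 kb for HOXA10, and unchanged for HOXA11 and HOXA13. The order follows from the position of the domain at the anterior and central end. In Clone 3 HOXA13 started 1101 kb and HOXA2 1198 kb from the nearest H3K27me3 domain, chr7:28301001-28333000. This domain is 32 kb long and overlaps the body of CREB5. The cluster stood in a stretch of 2416 kb without a Clone 3 H3K27me3 domain.

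The HOXC cluster spanned chr12:53938831-54056030 (117 kb) on the plus strand, and Clone 6 H3K27me3 domains lay at both of its ends. The domain at the lower end, chr12:53880001-53938000 (58 kb, scores 22.3 and 24.5), ended 831 bp, less than the grid size, before the start of HOXC13, the posterior end of the cluster. That edge falls in an intron of the antisense RNA HOXC13-AS, and the domain held no protein-coding start site. The domain at the upper end, chr12:54034001-54178000 (144 kb, scores 43.5 and 57.0), covered 22.03 kb, or 18.8% of the span. By its lower score it ranked 751 of 1959. None of it lay between the first and the last HOXC start site, where the coverage was 0%. Of the 100 kb flanks, 58% was covered in Clone 6 on the lower side and 100% on the upper side.

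HOXC5 and HOXC4, the central genes at the upper end, were the ones reached by the 144 kb domain. HOXC5 started 951 bp outside the edge, within the grid size, and 58.9% of its body was covered. HOXC4 had its 5′ end 17.1 kb outside while 56.3% of its body lay in the domain. The canonical HOXC4 transcript starts at 54053835, inside the domain, as did 2 of its 3 annotated transcripts. HOXC4 and HOXC6 have long 5′ parts that run over their neighbours, and the 5′ end of HOXC6 was 43.4 kb from a domain, its canonical start 5.56 kb and its body 3.18 kb.

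Between the domains, HOXC12 started 16.9 kb, HOXC11 35.1 kb, HOXC10 47.1 kb, HOXC9 39.1 kb and HOXC8 25.02 kb from the nearer one. By its canonical start HOXC9 was 33.8 kb away. No HOXC start was farther than 47.1 kb from a Clone 6 domain, and the middle of the cluster was free of domains. In Clone 3 the nearest H3K27me3 domain was chr12:54110001-54130000, 20 kb long and 54.0 kb beyond the cluster. The domain overlapped part of the body of SMUG1, which encodes a DNA glycosylase. It was among the lowest-scoring of its set, with scores of 11.4 and 14.1 and rank 2510 of 2600 by the lower one. It lay wholly inside the 144 kb Clone 6 domain, and the shared set held the same 20 kb. The Clone 3 distances ran from 76.95 kb (HOXC5) to 171 kb (HOXC13).

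The edge of the 144 kb domain fell in the hairpin of MIR615, which lies at chr12:54033950-54034045 on the plus strand in an intron of HOXC5. The hairpin is shown with the 45 bases inside the domain in capitals and the 51 outside in lower case.
miR-615 hairpin: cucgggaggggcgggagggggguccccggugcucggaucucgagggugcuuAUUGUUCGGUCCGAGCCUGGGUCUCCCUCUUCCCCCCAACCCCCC
The miR-615-3p arm lay inside and the miR-615-5p arm 13 bp outside. This split is finer than the 2 kb grid of the Clone 6 calls and does not separate the arms in the data.

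The HOXB cluster spanned chr17:48528526-48728750 (200.2 kb) on the minus strand, and no domain of any set overlapped it. A Clone 6 H3K27me3 domain, chr17:48730001-48766000 (36 kb, scores 13.3 and 18.8, rank 1728 of 1959), began 1.25 kb beyond the start of HOXB13, within the grid size. HOXB13 has the highest number in the cluster, lies set apart from the others, and acts in prostate and hindgut development. The other 9 HOXB starts lay between 96.4 kb (HOXB7) and 199 kb (HOXB1) from this domain. PRAC1 and PRAC2, small genes beside HOXB13, started 7.48 kb and 6.82 kb from it, and its upper edge fell in an intron of TTLL6.

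In Clone 3 the nearest H3K27me3 domain to HOXB, chr17:51465001-51482000 (17 kb), was 2736 kb beyond HOXB13 and 2934 kb from HOXB1. The stretch around HOXB without a domain measured 15904 kb in Clone 3 and 924 kb in Clone 6. The shared set gave the same domain and distance as Clone 3.

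The HOXD cluster spanned chr2:176092721-176190907 (98.2 kb) on the plus strand and was free of domains in all 5 sets, as were its 100 kb flanks. It was the cluster nearer to a Clone 3 than to a Clone 6 H3K27me3 domain. The nearest Clone 3 domain, chr2:175814001-175915000 (101 kb, scores 42.8 and 17.7), lay 178 kb from HOXD13, a posterior gene with a role in the digits, and 274 kb from HOXD1, the anterior end. This domain was 751 kb from the nearest Clone 6 domain. On the other side a Clone 3 domain of 494 kb, chr2:176655001-177149000, lay 464 kb from the cluster, so that the domain-free stretch measured 740 kb.

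In Clone 6 the nearest domain to HOXD, chr2:176666001-176772000 (106 kb, scores 56.4 and 26.6), lay 477 kb from HOXD1 and 573 kb from HOXD13. All of it was also within a Clone 3 domain. The domain-free stretch around HOXD measured 3870 kb in Clone 6.

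**Figure D3:**
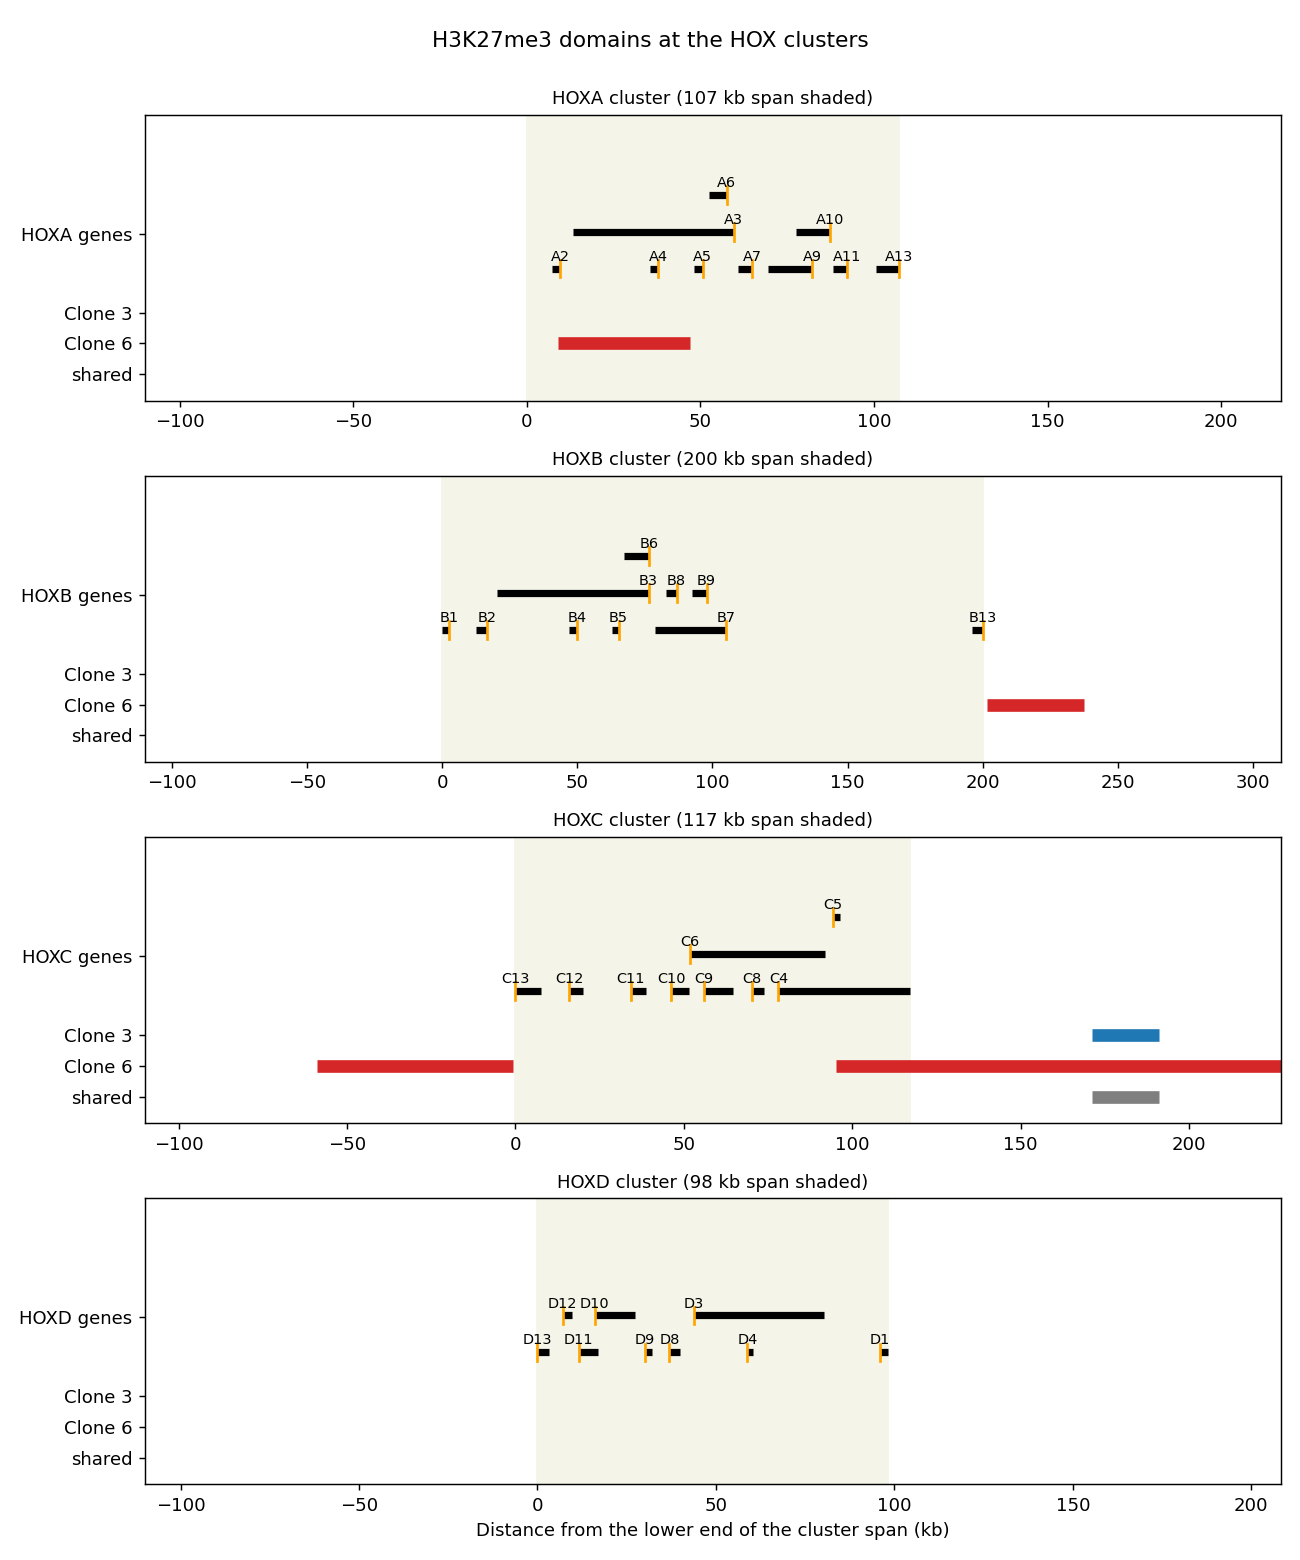
H3K27me3 domains of Clone 3 (blue), Clone 6 (red) and shared between the clones (grey) at the 4 clusters, with gene bodies (black) and start sites (orange), against the distance in kb from the lower end of each shaded cluster span and with about 110 kb shown on each side. Red bars lie in HOXA, at the upper end of HOXC and next to the ends of HOXC and HOXB, and HOXD has none in view.

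Over the 4 clusters, 522.7 kb in all, 60.0 kb lay in a Clone 6 H3K27me3 domain alone. Of this, 38 kb was in HOXA and 22.03 kb in HOXC. No base lay in a Clone 3 domain or in both clones, and 463 kb lay in neither. The domains at HOXA and HOXB and the 58 kb domain at HOXC had no overlap with a Clone 3 domain, and 20 kb of the 144 kb domain at HOXC did.

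By role along the body axis, 1 of 8 anterior genes (paralogue groups 1 to 3), 1 of 15 central genes (4 to 8) and 0 of 16 posterior genes (9 to 13) started in a Clone 6 H3K27me3 domain, beside 7.97% of all genes. Bodies touched by a domain were HOXA2 and HOXA3 among the anterior genes, and HOXA4, HOXC4 and HOXC5 among the central genes. The share of all protein-coding gene bodies touched by a domain was not computed. No posterior gene body was touched, although HOXC13 and HOXB13 lay within 10 kb of a domain. The counts are too small and too clustered in 2 loci to compare the groups.

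H3K9me3 domains overlapped no cluster, HOXB being at about the distance of the median gene. The nearest to HOXA was chr7:6659001-6706000 (47 kb, overlapping the body of the zinc finger gene ZNF12), 20387 kb away. The nearest to HOXC was chr12:37732001-38060000 in Clone 3, 15879 kb away. HOXB had the closest, chr17:51944001-54696000 (2752 kb long, holding the starts of CA10 and KIF2B), at 3215 kb. These distances were the same in the shared H3K9me3 set. HOXD was the exception. Its nearest Clone 3 domain, chr2:167026001-167051000 (25 kb, overlapping the body of XIRP2), lay at 9042 kb. The nearest shared domain, chr2:122364001-126412000, lay at 49681 kb.

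Among the listed noncoding genes, those that started in a domain lay at HOXA. Of 18 listed long noncoding RNAs, HOXA-AS2 and HOXA-AS3 (11.1%) started in the Clone 6 domain at HOXA, beside 7.97% of all protein-coding genes. None started in a domain of the other sets. HOXA-AS2 was covered whole and HOXA-AS3 over 38.6% of its length. HOTTIP, at the HOXA13 end, started 58.6 kb from that domain, and HOTAIR, in HOXC, 37.0 kb from a Clone 6 domain. HOXC13-AS started 1.64 kb outside the 58 kb domain, within the grid size, with 61.9% of its length covered. None of the 7 listed microRNA genes had its 5′ end in a domain of any set, beside 3.24% to 7.97% of all protein-coding genes by set. The lists of noncoding genes are too short for such counts to be a result about them.

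Of 20 listed flanking protein-coding genes, 0 started in a domain of any set, beside 3.24% to 7.97% of all genes by set, and the bodies of SMUG1 and TTLL6 were reached by a domain. SMUG1, the first gene beyond HOXC4, started 11.01 kb from the 144 kb Clone 6 domain and 59.0 kb from the Clone 3 domain. CALCOCO1, the first gene beyond HOXC13, was 152 kb from a Clone 6 domain. EVX1, a homeobox gene beyond HOXA13, was 103 kb from a Clone 6 domain, and SKAP2, at the other end, 107 kb. EVX2, the homeobox gene beyond HOXD13, was 169 kb from a Clone 3 domain and 582 kb from a Clone 6 domain.

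Among partners and relatives of HOX genes, MEIS1 and CDX4 started in an H3K27me3 domain. MEIS1, which encodes a homeodomain cofactor that binds DNA with HOX proteins, was 1 of 9 cofactor genes and did so in Clone 3, Clone 6 and the shared set. Its body was covered whole by chr2:66401001-66585000 in Clone 3 and over 10.4% by chr2:66400001-66448000 in Clone 6. CDX4, 1 of 6 ParaHox genes and a regulator of HOX genes, lay whole in chrX:73444001-73498000 in Clone 6 and 117 kb from a domain in Clone 3. No gene of Polycomb repressive complex 2 (0 of 12), Polycomb repressive complex 1 (0 of 16) or the H3K27 demethylases and trithorax group (0 of 11) started in a domain of any set. Beside the shares over all genes, from 3.24% to 7.97% by set, lists of these sizes are too short for such counts to be a result about them.

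The sequence of the clusters differed from that of the domains. CpG density was 36.8 per kb in HOXA, 24.1 in HOXB, 29.1 in HOXC and 33.9 in HOXD, against 10.0 over the genome. It was 9.48 per kb over all Clone 6 H3K27me3 domains, 8.37 over those of Clone 3 and 7.16 over Clone 3 H3K9me3 domains. In the covered part of HOXA it was 27.7 per kb, against 41.7 in the rest of the cluster, and in the covered part of HOXC 21.8, against 30.8. The covered parts were thus less dense than the rest of their clusters and denser than the average over the set.

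Low-density CpGs, those at least 20 bp from the next CpG on either side, made up 16.4% of the CpGs of HOXA, 25.9% of HOXB, 21.7% of HOXC and 17.5% of HOXD. The share was 53.0% over the genome and 57.5% over the Clone 6 H3K27me3 domains. In the covered part of HOXA it was 21.1% and in that of HOXC 28.8%.

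Within 1 kb of the start sites, HOX genes had a median of 53 CpGs per kb, against 45 for all protein-coding genes, and 24 of 39 lay above that value. These windows lie around the 5′ ends, and for 12 of 39 genes the canonical start was over 1 kb away. CpG density around canonical starts was not computed. They ran from 24.5 at HOXB6 to 109 at HOXD8. HOXA2 had 43 and HOXA4 74, on either side of the HOX median. Of the 7766 protein-coding genes at or above 53 CpGs per kb, 5.70% started in a Clone 6 and 3.94% in a Clone 3 H3K27me3 domain, both below the shares over all genes. What part of the HOX counts goes with CpG density was not tested.

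**Figure D4:**
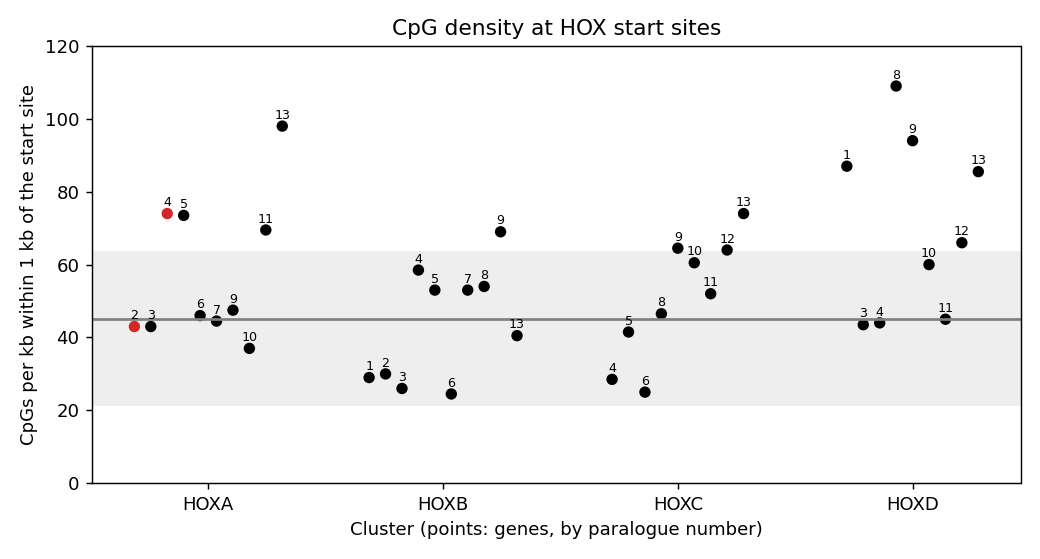
CpGs per kb within 1 kb of HOX start sites (5′ ends) by cluster, labelled with the paralogue number, with the median (line) and the middle quartiles (grey band) of all protein-coding genes. The genes that start in a Clone 6 H3K27me3 domain (red, HOXA2 and HOXA4) have 43 and 74 CpGs per kb, and HOXD8 is highest at 109.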

How the data were processed

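Chromatin immunoprecipitation sequencing of H3K9me3 and H3K27me3 was analysed from the domain sets the authors deposited for the 2 clones. Per the study's methods and the submitters' processing notes, the authors trimmed reads with Trim Galore 0.5.0, aligned them to hg38 with Bowtie2 2.3.5, removed duplicates, ran Enriched Domain Detector at its defaults and kept the domains that the replicates had in common. The deposited coordinates are start and end positions on a 1 kb grid (2 kb for Clone 6 H3K27me3), and the single-clone sets carry 2 deposited scores per domain, whose scale is not given in the sources used here and which were ranked only within a set. The study's methods state a minimum sequencing depth, but the depth of each library was not analysed here, and no interval or test was made.

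From these sets, the overlap and distance of each HOX gene's 5′ end, body and cluster span (outermost HOX gene ends) were computed with Python 3.11.15, numpy 2.4.6 and pysam 0.24.0 against GENCODE 44, and checked on simulated intervals. Canonical starts differed from the 5′ end for 17 of 39 genes, by over 1 kb for 12. Full values were given for genes called in 1 clone, genes within 10 kb of a domain edge and the end genes of each cluster. Other genes were named where they started in a domain or came first beyond a cluster. HOXA3, HOXC4 and the remaining HOX genes of HOXA and HOXC, HOTTIP, HOTAIR, HOXC13-AS, PRAC1 and PRAC2 were added after their values were seen. The members and gene lists were chosen with earlier results of these data known. One listed flanking name, KIAA1715, is an older name of LNPK and was counted once, leaving 20. Alternatives changed the start used, the overlap required, the domains kept and the span. One HOX gene is counted but its own values are not reported here.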

Additional observations from a re-analysis of the deposited data

How the results depend on the processing

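Of 162 alternative values for 39 results, 142 stayed within 1.5 times the reported value and 20 moved. Most of those that stayed were 0 beside a reported 0, which stricter rules cannot change. The count of 142 is therefore not a measure of how stable the nonzero results are. For H3K9me3, and for Clone 3 and shared H3K27me3, the count of HOX starts in domains was 0 under every alternative run. Only the looser rules could have raised it. The Clone 6 H3K27me3 count of 2 depended on the rule. It was 4 with any annotated transcript start (HOXA2, HOXA3, HOXA4, HOXC4), 5 with any base of the gene body in a domain and 4 with at least 50% of the body. It was 1 with starts at least 5 kb inside a domain (HOXA4), 6 with starts inside or within 5 kb (adding HOXA5, HOXB13, HOXC5 and HOXC13), and 0 with domains of at least 100 kb or with the upper 50% of domains by the lower score. No share of all protein-coding genes was computed under these rules, so these counts are not set against other genes. Coverage of the 4 clusters in Clone 6, 11.5%, was 21.2% with 50 kb added on each side and 4.21% with domains of at least 100 kb. By cluster, HOXC went from 18.8% to 0% from first to last start site by 5′ ends and to 55.8% with 50 kb added. HOXA went from 35.5% to 18.3% with 50 kb added and to 0% with domains of at least 100 kb, and HOXB from 0% to 11.99% with 50 kb added. These follow from the construction of each alternative. With CpGs at least 35 bp apart, the low-density share was 8.23% in HOXA, 14.9% in HOXB, 11.2% in HOXC and 9.25% in HOXD. On the 4 chromosomes with HOX clusters, 1.30% and 1.25% of all genes started in Clone 3 and shared H3K9me3 domains. No paired analysis was possible because each set is a single list of the domains its replicates had in common, which also prevents leaving out a replicate.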

Other observations

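Of the 8 Clone 3 H3K27me3 domains that bound the clusters, 6 held no protein-coding start site, and the same count held for the 8 Clone 6 domains that bound or flank them. Those with starts lay at HOXB and HOXC in Clone 3 and at HOXA and HOXC in Clone 6. In Clone 3, the domain on the lower side of HOXB, chr17:35281001-35561000 (280 kb), held the starts of 5 Schlafen genes, SLFN11, SLFN12, SLFN13, SLFN12L and SLFN14. The one on the lower side of HOXC, chr12:52625001-52795000 (170 kb), held the starts of the keratin genes KRT1, KRT2, KRT76 and KRT77. Both lay wholly in Clone 6 domains. In Clone 6, the domain on the lower side of HOXA, chr7:25194001-25892000 (698 kb), held the start of NPVF, which encodes a neuropeptide precursor, and 647 kb of it lay in Clone 3 domains. The one on the upper side of HOXC, chr12:54506001-55082000 (576 kb), held 7 start sites, among them PDE1B, DCD and NEUROD4, and 539 kb of it lay in Clone 3 domains. Overlap between the clones differed among the bounding domains. Of the Clone 3 domains, 1 of 8, at HOXD, had no overlap with a Clone 6 domain, and 218 kb of the 494 kb domain on the other side of HOXD did. Of the Clone 6 domains, 4 of 8 had no overlap with a Clone 3 domain, 2 at HOXB, 1 at HOXC and 1 at HOXD. The shares of all domains of each clone without a protein-coding start site, or without such overlap, were not computed. These counts are therefore not read as a result about the bounding domains.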
